A study of Mus musculus with 8 samples.

Results

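Doxorubicin is an anthracycline, a drug built on a quinone ring system with a ketone on its side chain. The 9 genes described here encode reductases of kinds that can act on one or the other. Action of each enzyme on the drug was not examined here. They are the carbonyl reductase genes Cbr1, Cbr2, Cbr3 and Cbr4, the aldo-keto reductase genes Akr1a1, Akr1b3 and Akr7a5, and the flavoprotein genes Por and Xdh. They were taken by symbol from a table of 55421 genes, where each of the 9 had 1 row. The table came from RNA-seq of tibiae and femurs of 8 wild-type male C57BL/6 mice, 15 weeks old when assigned to groups. The DoxoR group had 4 mice that received a single intraperitoneal injection of doxorubicin at 10 mg/kg, and the CTRL group had 4 that received the saline vehicle. Bones were taken on day 30, cleaned of soft tissue, cut free of their ends and spun to remove marrow. The series uses the drug as a model of senescence after chemotherapy, and the comparison here is between DoxoR and CTRL bones 30 days after the dose, not during exposure to the drug.

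Carbonyl and aldo-keto reductases can pass a pair of electrons from NADPH to the side-chain ketone. This turns doxorubicin into the alcohol doxorubicinol, a metabolite known for its toxicity to the heart. Por and Xdh can instead pass a single electron to the quinone, and the semiquinone that results gives its electron to oxygen and returns to the starting drug, so that superoxide is made in a cycle. Several of these genes also have everyday substrates, among them steroids, prostaglandins, sugars, lipid aldehydes and purines, and are transcribed in cells that have never met the drug.

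None of the 9 genes passed the test between DoxoR and CTRL bones, and 1 stood apart from the rest. Cbr2 measured 6.94 ± 0.897 CPM (counts scaled to a common library size) in DoxoR bones and 4.10 ± 1.03 CPM in CTRL bones (SD, n = 4 each), a 1.68-fold difference, and each DoxoR library lay above each CTRL library. Akr1b3, Cbr3 and Akr7a5 were between 1.24-fold and 1.29-fold higher in the mean with groups that overlapped. Cbr1, Por and Xdh had nearly equal means in both groups.

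All 9 genes passed the filter on low counts. In edgeR's quasi-likelihood test 0 of 9 had an adjusted p under 0.05, where 0% of the 17035 tested genes did. Adjusted p-values of the 9 ran from 0.703 to 0.990. DESeq2 and limma-voom also placed 0 of the 9 past that threshold, where they called 0.17% and 0% of tested genes in either direction. At an unadjusted p under 0.05 edgeR had 2 of the 9, Cbr2 and Akr1b3, against 5.36% of all tested genes, and 1 of the 9 had groups that did not overlap, against 3.59% of all tested genes. The log2 fold change (DoxoR over CTRL) was above 0 for 9 of 9 genes, with a median of 0.19, while 57.2% of all tested genes were above 0 and their median was 0.036. With library size as the only scaling, Cbr1, Por and Xdh lay below 0, and 6 of 9 were above it against 47% of all tested genes. The count was also 6 of 9 without DoxoR 2, against 51% of all tested genes, and without CTRL 3, against 50.8%. Skeletal muscle markers were above 0 in 17 of 17 genes (median 0.39), erythroid markers below 0 in 16 of 16 (median −0.33), and neutrophil markers above 0 in 9 of 15 (median 0.040); their part in the direction of the 9 genes was not tested beyond the covariate fits, which left 8 of 9 above 0 with marrow and 8 of 9 with muscle.

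The libraries held between 23699525 and 35747083 counts, and the 9 genes had between 53 and 6773 counts each. Bone markers were present in every library: the 11 osteoblast markers summed to between 5739 and 18570 CPM in DoxoR and between 6455 and 13290 CPM in CTRL bones. Skeletal muscle markers summed to between 20560 and 51140 CPM in DoxoR and between 6635 and 36350 CPM in CTRL bones, with CTRL 3 the lowest of all. Neutrophil and erythroid markers, signs of marrow left in the spun bones, were high in both groups. In bulk tissue, fewer cells of a type and less RNA per cell cannot be told apart.

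**Figure D1:**
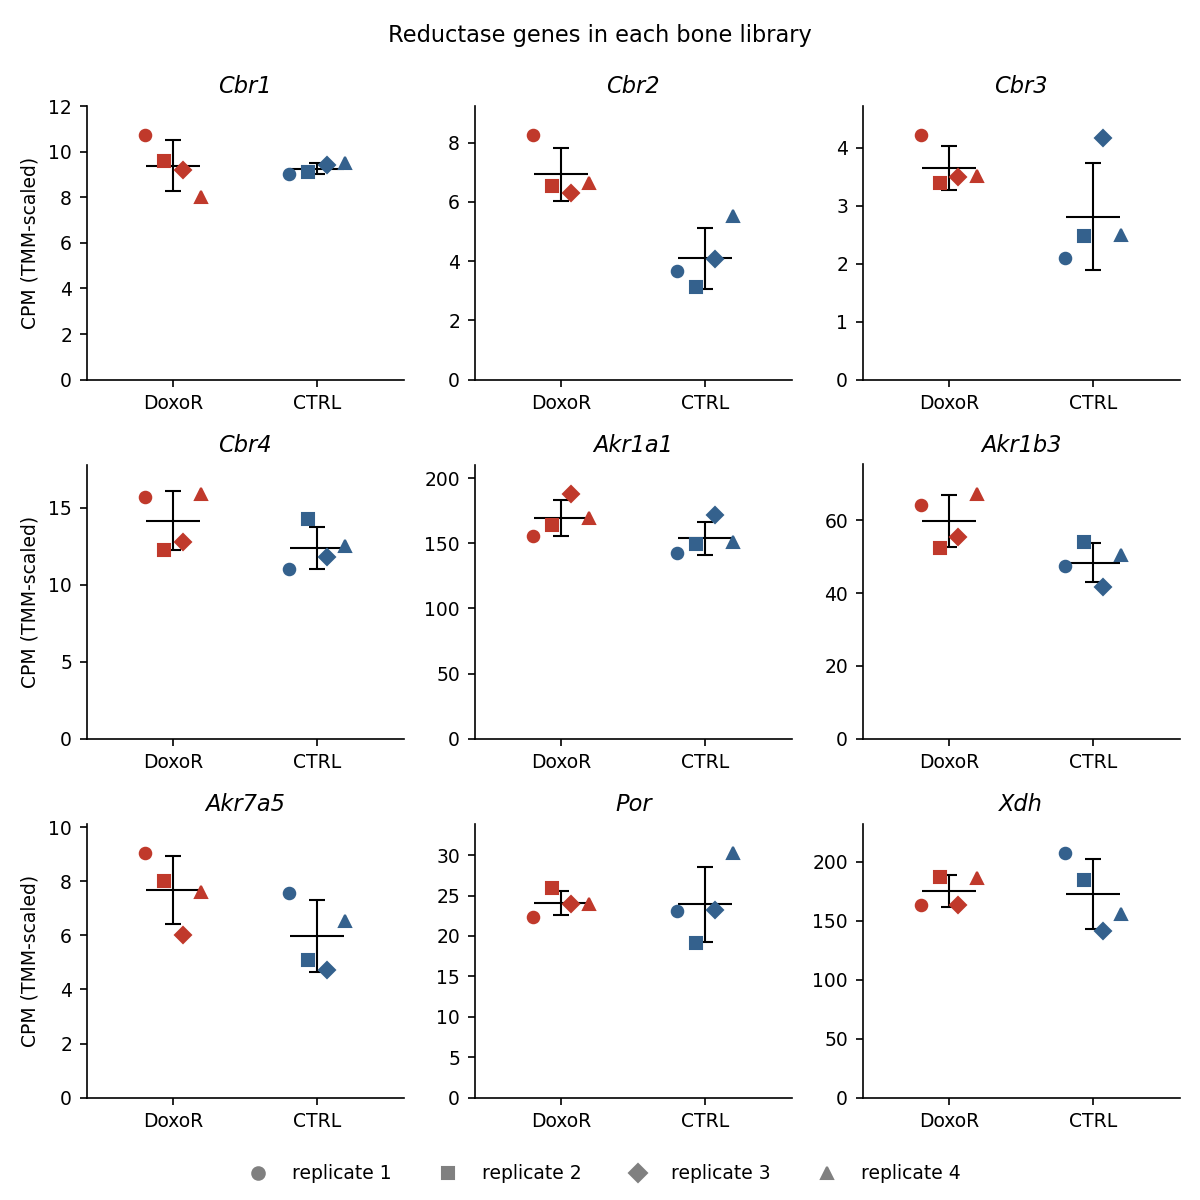
TMM-scaled CPM of each of the 9 reductase genes in the 4 DoxoR (left) and 4 CTRL (right) libraries; points are libraries, with a marker shape for each replicate number, and bars give mean ± SD. Cbr2 is the panel in which the groups do not overlap, from 6.29 to 8.26 CPM in DoxoR against 3.13 to 5.54 CPM in CTRL.

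Cbr1 and Cbr3 lie near each other on mouse chromosome 16. GENCODE M21 (GRCm38) places Cbr1 at 93605853 to 93610505 and Cbr3 at 93683215 to 93690990, both on the plus strand, with 72709 bases between them. That stretch holds 3 annotated genes: the protein-coding Gm5678, the pseudogene Gm45384 and the RNA gene Gm22344. Cbr2 lies apart on chromosome 11 at 120729489 to 120732114, on the minus strand, and Cbr4 on chromosome 8 at 61487734 to 61506694, on the plus strand. The 250 bases upstream of the RefSeq start (GRCm38.p6) are printed for Cbr2, the gene with the largest difference, and for the pair Cbr1 and Cbr3, whose levels varied differently between mice. Each reads 5′ to 3′ along the gene's strand, and capitals mark CpG dinucleotides. The windows are chr11:120732022-120732271 for Cbr2, chr16:93607587-93607836 for Cbr1 and chr16:93682969-93683218 for Cbr3. That of Cbr1 lies inside the GENCODE span of its gene, and those of Cbr2 and Cbr3 reach partly into the spans of theirs.
Cbr2: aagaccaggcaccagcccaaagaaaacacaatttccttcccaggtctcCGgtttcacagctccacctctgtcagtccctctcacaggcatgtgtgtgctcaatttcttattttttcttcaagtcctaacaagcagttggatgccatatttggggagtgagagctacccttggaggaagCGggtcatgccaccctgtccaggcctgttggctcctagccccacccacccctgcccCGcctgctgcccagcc
Cbr1: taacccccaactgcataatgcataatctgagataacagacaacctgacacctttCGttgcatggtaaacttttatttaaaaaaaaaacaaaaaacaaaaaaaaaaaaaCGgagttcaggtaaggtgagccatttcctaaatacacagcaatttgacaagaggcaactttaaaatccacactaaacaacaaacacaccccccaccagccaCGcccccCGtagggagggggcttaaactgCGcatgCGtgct
Cbr3: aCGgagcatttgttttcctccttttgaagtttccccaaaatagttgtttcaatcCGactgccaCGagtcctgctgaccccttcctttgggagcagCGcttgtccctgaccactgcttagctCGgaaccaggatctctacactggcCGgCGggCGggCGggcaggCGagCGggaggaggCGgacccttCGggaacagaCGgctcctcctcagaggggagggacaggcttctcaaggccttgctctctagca

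The Cbr2 window held 3 CpG and the Cbr1 window 6, while the Cbr3 window held 14. Of 32851 such windows in the RefSeq table, 29% held fewer CpG than that of Cbr2, 49.6% fewer than that of Cbr1 and 70.6% fewer than that of Cbr3. The table had 7 of the 9 genes under their symbol or identifier, all but Akr1b3 and Xdh. In these 7 windows both strands were searched for the antioxidant response element core TGACNNNGC, the TATA box TATAAA and the CCAAT box CCAAT, and 0 matches were found. Over all 32851 windows, 10.2%, 12.4% and 33.8% held a match to these 3 motifs in turn. The Por window, at 135688895 to 135689144 on chromosome 5, lies inside the GENCODE span of that gene, 135670033 to 135735326. The search says only that these letters are not in these windows.

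Cbr2 encodes a carbonyl reductase first known from mouse lung and also described in fat cells. Its CPM in DoxoR 1, 2, 3 and 4 was 8.26, 6.55, 6.29 and 6.64, and in CTRL 1, 2, 3 and 4 it was 3.67, 3.13, 4.06 and 5.54. The lowest DoxoR library was above the highest CTRL library, which was CTRL 4. This gave a log2 fold change of 0.75 ± 0.19 (SE), with an unadjusted p of 0.00289 by edgeR's quasi-likelihood test. Its adjusted p was 0.703 by the same test, whereas DESeq2 gave 0.120. Of the tested genes, 0.399% had a smaller unadjusted p and 97.5% a smaller absolute log2 fold change. limma-voom gave a 95% interval of the log2 fold change from 0.34 to 1.17. Within each library, Cbr2 stood at between 1.31 and 1.59 times the level of Cbr1 per kilobase of exon in DoxoR. In CTRL it stood at between 0.661 and 1.123 times. No scaling between libraries can alter this ratio, but its size rests on annotated exon lengths of 1327 bases for Cbr2 and 2554 for Cbr1. The transcripts of Cbr2 share 12.1% of their 50-base stretches with the annotated copy Gm11771, which had 0 counts in every library.

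Markers of 2 cell types that can express Cbr2 lay on different sides of 0 beside it, and their part in the result was not tested. Of 15 resident macrophage markers, 13 lay below 0, with a median log2 fold change of −0.26, and their summed level was between 635.5 and 784.9 CPM in DoxoR against between 658 and 953.5 CPM in CTRL bones. Timd4, a receptor for dying cells on resident macrophages, had a low level, 0.451 ± 0.130 CPM in DoxoR and 1.84 ± 0.848 CPM in CTRL bones. The haemoglobin scavenger receptor gene Cd163 measured 12.0 ± 3.62 CPM in DoxoR and 27.2 ± 7.45 CPM in CTRL bones (SD, n = 4 each). Both are named because they are among the 3 macrophage markers with groups that did not overlap. Csf1r, Folr2, Cd68 and Lyve1, of the same list, had log2 fold changes of 0.22, 0.014, −0.020 and −0.018. Of the 9 tested adipocyte markers, 8 lay above 0, with a median of 0.69, and their summed level was between 322 and 565.4 CPM in DoxoR against between 360.9 and 454.4 CPM in CTRL bones. The adipocyte marker Retn, which encodes resistin, measured 1.89 ± 0.442 CPM in DoxoR and 0.899 ± 0.210 CPM in CTRL bones (SD, n = 4 each). It is named because it was the 1 adipocyte marker with groups that did not overlap. Adipoq and Fabp4, of the same list, had log2 fold changes of −0.023 and 0.069. By library, the summed adipocyte level was 480.7, 565.4, 322 and 428.1 CPM in DoxoR 1 to 4. In CTRL 1 to 4 it was 367.3, 368.7, 454.4 and 360.9 CPM. DoxoR 3 had the lowest adipocyte sum and the lowest Cbr2 of the DoxoR group, while DoxoR 2 had the highest sum and DoxoR 1 the highest Cbr2.

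Cbr1 encodes the main cytosolic enzyme that makes doxorubicinol in many tissues. Its CPM was 10.7, 9.58, 9.19 and 8.03 in DoxoR 1 to 4 and 9.03, 9.10, 9.42 and 9.49 in CTRL 1 to 4. The DoxoR libraries lay on both sides of the CTRL libraries, whose spread was small, with a coefficient of variation of 11.9% in DoxoR and 2.46% in CTRL. Counting error alone would give 6.23% in DoxoR and 6.06% in CTRL, so the CTRL spread was below what counting alone gives on average. Its log2 fold change was 0.019 ± 0.12 (SE), and the limma-voom 95% interval ran from −0.26 to 0.28, which leaves out a 1.5-fold difference in either direction.

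Cbr3 encodes a close relative of Cbr1 that is less active on many of the same substrates. It had the lowest mean CPM of the 9 genes in each group, with 4.22, 3.39, 3.49 and 3.52 in DoxoR 1 to 4 and 2.10, 2.47, 4.16 and 2.498 in CTRL 1 to 4. Apart from CTRL 3, each CTRL library was below each DoxoR library. Cbr3 had a log2 fold change of 0.37 ± 0.23 (SE), with an unadjusted p of 0.1365 and an adjusted p of 0.856 in edgeR's quasi-likelihood test. Without CTRL 3 it was 0.59 ± 0.18 (SE), the highest value with 1 library left out. The same test then gave an unadjusted p of 0.00825 and an adjusted p of 0.9998. CTRL 3 is also the library with the least skeletal muscle RNA. With the muscle markers as a covariate the log2 fold change was 0.55, with an unadjusted p of 0.0249 and an adjusted p of 0.862 in the same test. The part of muscle in the Cbr3 values was not tested beyond this fit. Per kilobase of exon, Cbr3 was at between 0.722 and 0.892 of the level of Cbr1 in DoxoR and at between 0.473 and 0.900 in CTRL. Cbr3 shared 0.0797% of its 50-base stretches with Cbr1.

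Cbr4 encodes a mitochondrial reductase of quinones that also works in mitochondrial fatty acid synthesis. It measured 14.2 ± 1.91 CPM in DoxoR and 12.4 ± 1.37 CPM in CTRL bones (SD, n = 4 each). DoxoR 1 and DoxoR 4, at 15.7 and 15.9 CPM, were above all CTRL libraries, and the other DoxoR libraries lay within the CTRL range of 11.0 to 14.2 CPM. Over all libraries the log2 fold change was 0.19 ± 0.14 (SE), and 0.12 without DoxoR 1.

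Among the aldo-keto reductases, Akr1b3 encodes the mouse aldose reductase, which turns glucose into sorbitol and reduces lipid aldehydes. It measured 64.2, 52.3, 55.3 and 67.3 CPM in DoxoR 1 to 4 and 47.3, 54.2, 41.5 and 50.4 CPM in CTRL 1 to 4. Of the DoxoR libraries, 3 lay above every CTRL library, and DoxoR 2 was below CTRL 2. Akr1b3 had a log2 fold change of 0.31 ± 0.12 (SE), with an unadjusted p of 0.0325 and an adjusted p of 0.856 in edgeR's quasi-likelihood test. Without CTRL 3 it was 0.20. The limma-voom 95% interval ran from 0.029 to 0.58. Akr1b3 shares 9.48% of its 50-base stretches with other genes, chiefly Gm6644, Gm6736 and Gm12138, which had at most 25, 11 and 12 counts in a library.

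Akr7a5 encodes a reductase known for removing the dialdehyde of aflatoxin. It measured 9.05, 8.02, 6.03 and 7.60 CPM in DoxoR 1 to 4 and 7.57, 5.09, 4.72 and 6.52 CPM in CTRL 1 to 4. DoxoR 3 was the library that lay within the CTRL range. The log2 fold change was 0.36 ± 0.19 (SE) with an adjusted p of 0.856 in edgeR's quasi-likelihood test, and it was 0.22 without CTRL 3.

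Akr1a1 encodes aldehyde reductase, which in mice serves vitamin C synthesis and also reduces anthracyclines. It measured 155.7, 163.8, 188.0 and 169.6 CPM in DoxoR 1 to 4 and 142.8, 149.8, 172.0 and 150.8 CPM in CTRL 1 to 4. All 4 DoxoR libraries were above 3 of the CTRL libraries, and CTRL 3 lay among the DoxoR libraries. Its log2 fold change was 0.14 ± 0.11 (SE), and 0.061 without DoxoR 3.

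Por encodes the reductase that feeds electrons to microsomal cytochrome P450 enzymes and haem oxygenase. It measured 22.4, 25.95, 24.0 and 24.0 CPM in DoxoR 1 to 4 and 23.0, 19.1, 23.2 and 30.3 CPM in CTRL 1 to 4. Every DoxoR library lay inside the CTRL range. The coefficient of variation was 6.05% in DoxoR and 19.4% in CTRL, where CTRL 2 and CTRL 4 were the extremes. Por had a log2 fold change of 0.0093 ± 0.14 (SE), and the limma-voom 95% interval from −0.29 to 0.34 leaves out a 1.5-fold difference in either direction.

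Xdh encodes xanthine oxidoreductase, which makes uric acid at the end of purine breakdown. Its CPM was 163.3, 186.7, 163.3 and 186.4 in DoxoR 1 to 4 and 207.4, 184.7, 141.2 and 155.6 in CTRL 1 to 4. Again every DoxoR library lay inside the CTRL range, with CTRL 1 above and CTRL 3 and CTRL 4 below all of them. The log2 fold change was 0.022 ± 0.14 (SE), and the limma-voom 95% interval ran from −0.28 to 0.33.

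**Figure D2:**
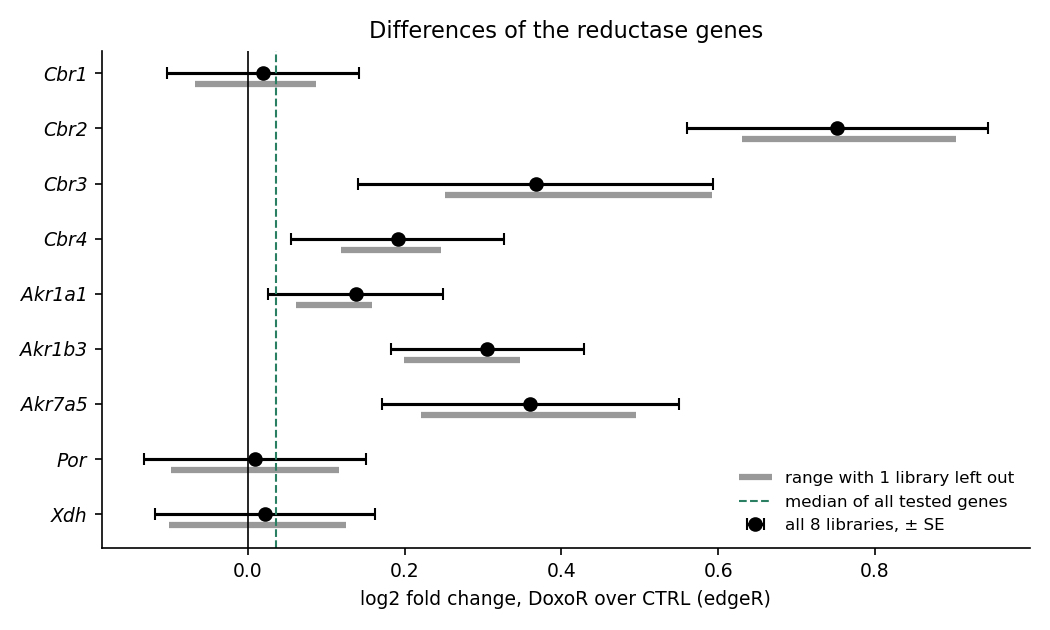
Log2 fold change of each reductase gene, DoxoR over CTRL, from edgeR with all 8 libraries (points, ± SE), with the range when 1 library at a time is left out (grey bars) and the median of all tested genes (dashed line, 0.036). Cbr2 sits at 0.75 with a range from 0.63 to 0.90, and the ranges of Cbr1, Por and Xdh cross 0.

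The limma-voom 95% interval lay within a 1.5-fold difference in both directions for 6 of the 9 genes; for Akr1b3, 1 of the 6, its upper end was 1.497-fold. Cbr2, Cbr3 and Akr7a5 made up the rest, with upper ends at 2.25-fold, 1.84-fold and 1.74-fold. The coefficient of variation was larger in DoxoR for 3 genes and larger in CTRL for 6.

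Levels of different genes were compared per kilobase of exon, from the summed exon length of each gene in GENCODE M21. That length takes in every annotated exon, 8384 bases for Akr1b3 and 9175 for Xdh. It can exceed the length of the transcripts present in bone, so the ranks and shares given here depend on the annotation. Akr1a1 stood highest, at 61.6 ± 4.998 CPM per kilobase in DoxoR and 55.9 ± 4.58 in CTRL bones, and Xdh next, at 19.1 ± 1.46 and 18.8 ± 3.23 (SD, n = 4 each). Akr1a1 alone made between 51.9% and 59.3% of the summed level of the 9 genes in DoxoR libraries and between 52% and 60.6% in CTRL libraries. Akr1b3 and Por followed in both groups: Akr1b3 was at 7.13 ± 0.848 in DoxoR and 5.77 ± 0.638 in CTRL bones, and Por at 5.99 ± 0.362 in DoxoR and 5.95 ± 1.16 CPM per kilobase in CTRL bones. In DoxoR bones Cbr2 was at 5.23 ± 0.676 CPM per kilobase, above Akr7a5 at 4.28 ± 0.700 and Cbr1 at 3.67 ± 0.438. In CTRL bones Akr1b3 and Por differed by less than their spread, as did Cbr1 (3.63 ± 0.0891), Akr7a5 (3.33 ± 0.734) and Cbr2 (3.09 ± 0.778). Cbr3 and Cbr4 were the lowest in both groups, at 2.92 ± 0.303 and 2.26 ± 0.305 in DoxoR and at 2.24 ± 0.735 and 1.98 ± 0.219 in CTRL bones.

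**Figure D3:**
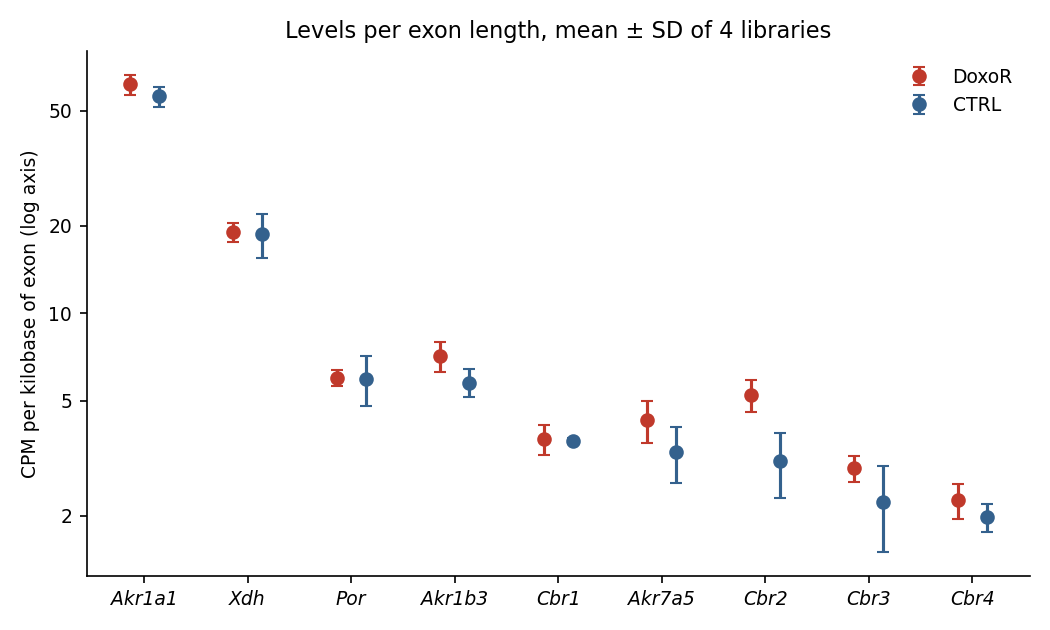
Level of each reductase gene in CPM per kilobase of exon on a log axis, as mean ± SD of 4 DoxoR (left of each pair) and 4 CTRL libraries, ordered by the CTRL mean. Akr1a1 and Xdh lie above the rest in both groups, and Cbr2 is the gene whose error bars are farthest apart.

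Beside the 9 genes, 6 lists of related genes were read, with 116 different genes tested. At an adjusted p under 0.05, 0 of these passed in edgeR and 0 in limma-voom, while DESeq2 called 1, Cyp2e1, a cytochrome P450, at an adjusted p of 7.7e-08, where it called 0.17% of all tested genes. At an unadjusted p under 0.05 edgeR had 11 of the 116, where 5.36% of all tested genes were. Of 22 tested genes for other reductases of carbonyls and quinones, 15 lay above and 7 below 0, with a median log2 fold change of 0.054. Nqo1, the quinone reductase that moves a pair of electrons at once, measured 9.42 ± 1.11 CPM in DoxoR and 9.39 ± 1.38 CPM in CTRL bones, and its relative Nqo2 33.7 ± 2.55 and 33.8 ± 4.47 CPM (SD, n = 4 each). Their log2 fold changes, 0.0057 and −0.0045, changed sign with some libraries left out. Dhrs9, a reductase of retinoids and steroids, had the smallest p of the list, at 23.9 ± 2.94 CPM in DoxoR and 34.5 ± 9.53 CPM in CTRL bones (SD, n = 4 each). Akr1b10, an aldo-keto reductase of lipid aldehydes and retinals, measured 25.4 ± 2.19 CPM in DoxoR and 22.3 ± 1.32 CPM in CTRL bones (SD, n = 4 each) with groups that did not overlap. Its log2 fold change of 0.19 was 0.11 without CTRL 3.

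Of 16 other genes for flavoprotein reductases or for other subunits of their complexes, such as Ndufv2 and Ndufs1, 12 lay above 0. The median was 0.13. Aifm2, which reduces ubiquinone at membranes and shields lipids from peroxidation, measured 8.84 ± 0.552 CPM in DoxoR and 7.14 ± 0.759 CPM in CTRL bones (SD, n = 4 each). Its groups did not overlap, and the log2 fold change of 0.31 was 0.20 without CTRL 3.

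NRF2 is the transcription factor that switches on many reductase and glutathione genes when cells meet electrophiles, and Cbr1, Cbr3 and Nqo1 are among its known targets. Of the 26 genes of the NRF2 list, 14 lay above and 12 below 0, with a median of 0.012. At an unadjusted p under 0.05, 5 were lower and 0 higher, where 3.23% and 2.13% of all tested genes were. Slc7a11, the cystine carrier, measured 5.91 ± 1.59 CPM in DoxoR and 14.3 ± 6.16 CPM in CTRL bones (SD, n = 4 each), a log2 fold change of −1.27 ± 0.33 (SE). Its groups overlapped. Gclc and Gclm, the subunits of the enzyme that starts glutathione synthesis, had −0.35 ± 0.13 and −0.40 ± 0.17 (log2 ± SE). Gclm was at −0.60 without DoxoR 3 and at −0.32 without DoxoR 1. Hmox1, haem oxygenase, had −0.60 ± 0.26, and −0.38 without CTRL 4. The gene of NRF2 itself, Nfe2l2, had −0.22 ± 0.12, with −0.34 without CTRL 4 and −0.18 without DoxoR 4. That of its inhibitor Keap1 had 0.19 ± 0.13, and 0.066 without CTRL 3.

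Of 21 tested genes in a list of cytochrome P450 enzymes and other possible acceptors of electrons from Por, 13 lay above 0 and the median was 0.059. Tbxas1 and Ptgis count here as P450 family members, and uptake of electrons from Por is not claimed for them. Cyp2e1 and Tbxas1, thromboxane synthase, were the genes of this list with the smallest p, and they differed in opposite directions. Cyp2e1 had a log2 fold change of 1.86 ± 0.24 (SE), beside 0.0093 for Por, and Tbxas1 had −0.54 ± 0.15 (SE). The megakaryocyte markers, a lineage that makes thromboxane, summed to between 1154 and 1664 CPM in DoxoR against between 1857 and 2425 CPM in CTRL bones. Of these markers, 11 of 11 lay below 0, as did 13 of the 15 resident macrophage markers, with a median of −0.26 for the latter. The part of either cell type in the Tbxas1 values was not tested. Of 20 tested genes of purine degradation and the molybdenum cofactor that Xdh needs, 16 lay above 0 with a median of 0.10. Aox1, aldehyde oxidase, which uses the same cofactor, measured 13.1 ± 2.97 CPM in DoxoR and 9.68 ± 3.14 CPM in CTRL bones (SD, n = 4 each), and its log2 fold change of 0.44 was 0.18 without CTRL 3 and 0.23 with the muscle markers as a covariate. Of 14 tested genes of polyol and aldehyde metabolism, 9 lay above 0 with a median of 0.10. Neither of these lists had a gene with an unadjusted p under 0.05, which lists of 20 and 14 genes can lack where the share of all tested genes is 5.36%. Sord, which follows aldose reductase in the polyol pathway, measured 73.2 ± 8.999 CPM in DoxoR and 83.5 ± 9.72 CPM in CTRL bones (SD, n = 4 each).

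**Figure D4:**
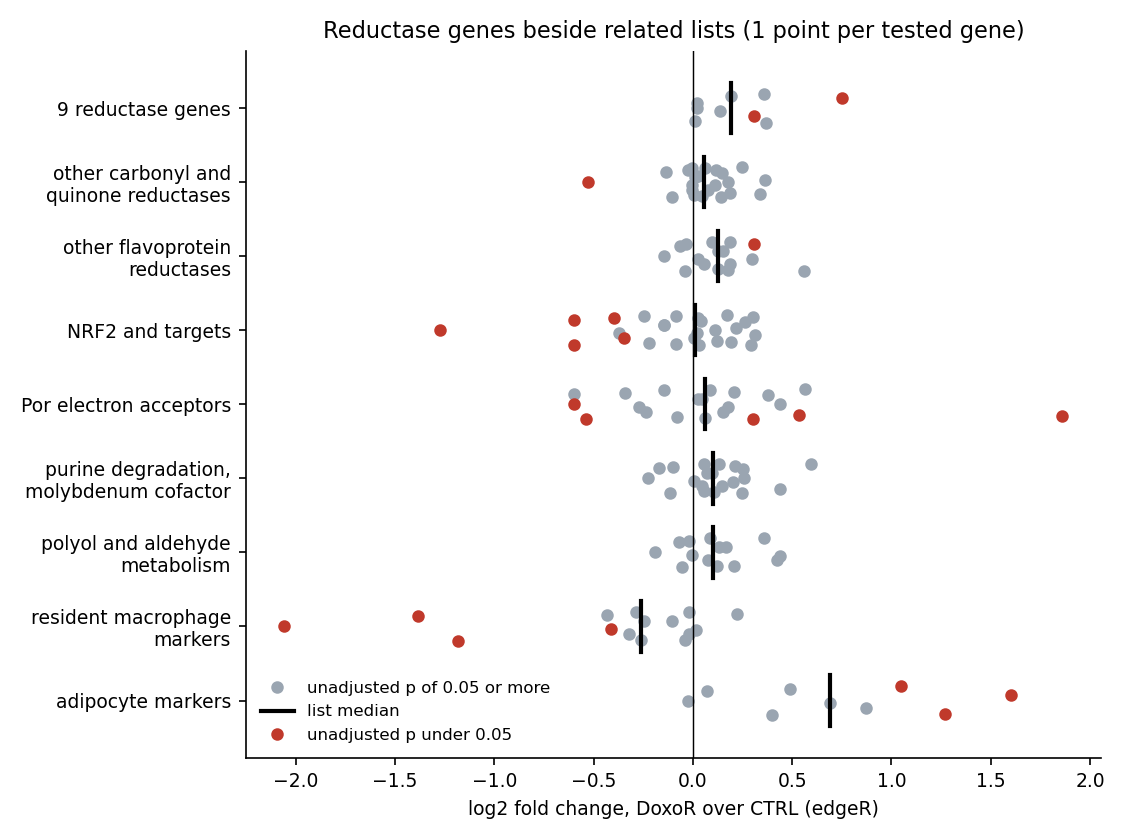
Log2 fold change, DoxoR over CTRL, of each tested gene (points) of the 9 reductase genes, 6 related lists and 2 cell type marker lists, with list medians as black bars and genes of an unadjusted p under 0.05 in red. The medians are 0.19 for the reductase genes, 0.012 for the NRF2 list, −0.26 for resident macrophage markers and 0.69 for adipocyte markers. The list marked Por electron acceptors includes Tbxas1 and Ptgis as P450 family members, and that of flavoprotein reductases includes other subunits of their complexes.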

How the data were processed

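The deposited values are expected counts per gene, all whole numbers, in 1 column for each of 8 mice; the submitters' processing notes name STAR 2.5.3a and RSEM 1.3.0, which estimates expected counts, but not the role of each. GRCh38, a human build, is the one those notes list, although the table's identifiers are of mouse genes; annotation release and the use of strand or of molecular identifiers: not given in the sources used here. Libraries were stranded and poly-A selected, per the labels' protocols. Positions and exon lengths came from GENCODE M21, which held 54673 of 55421 identifiers with their version, and promoters from RefSeq (GRCm38.p6), by symbol or identifier. In a chi-square comparison of all 28 library pairs, the value per degree of freedom was 26.2 or more, so none agreed within sampling noise.

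Counts were filtered by filterByExpr (minimum count 10, minimum total 15), scaled by TMM and tested with edgeR 4.0.16 (R 4.3.3), robust quasi-likelihood, two-sided, DoxoR over CTRL with no covariate, with Benjamini-Hochberg adjustment over 17035 genes and a threshold of 0.05. The SE was derived from the F statistic. DESeq2 1.42.0, limma-voom (limma 3.58.1), other scalings, no filter, marrow and muscle covariates, the replicate number as a block and each library left out were alternatives. The fit was tested on simulated data. The 9 genes were all named, and of each related list up to 4 genes with the smallest p plus Nqo1, Nqo2, Nfe2l2 and Keap1 were eligible, of which the text gives a part. Cell type markers were named after their values were seen. Members and lists were chosen with earlier results of these data known. Tp53i3 was not matched by symbol, and Ndor1 matched several identifiers; neither is analysed here. Counting error covers reads, not molecules.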

Additional observations from a re-analysis of the deposited data

Results flagged for a closer look

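Cbr3 in DoxoR 1, at 4.22 CPM, lay above the other 3 DoxoR libraries, which held between 3.39 and 3.52 CPM. Its gap to the nearest of them was 0.851 of the range of the group, above the critical value of Dixon's test for 4 samples. Of 18 groups of 4 checked, 1 was marked, and chance marks about 1 in 20. The coefficient of variation of Cbr3 in DoxoR was 10.4%, where counting error alone would give 10.0%, so the spread was about that of read sampling. Without DoxoR 1 the log2 fold change of Cbr3 was 0.28.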

How the results depend on the processing

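Over 16 alternative settings, 123 of 144 recomputed log2 fold changes of the 9 genes kept their direction and 0 passed the threshold. The 21 that changed sign belonged to Cbr1, Por and Xdh, all of them near 0. Cbr1 was at −0.039 when scaled by library size only and between −0.067 and 0.087 with 1 library left out. Por was at −0.0019 with DESeq2 size factors, −0.050 with library size only, −0.0021 with no filter and −0.0021 in DESeq2, and between −0.097 and 0.12 with 1 library left out. Xdh was at −0.016 with library size only, −0.019 with marrow and −0.037 with muscle as a covariate, and between −0.10 and 0.12 with 1 library left out. The cause was not tested. Cbr2 lay between 0.63 and 0.90 with 1 library left out and between 0.67 and 0.77 in the other settings, with adjusted p between 0.120 and 1.00.

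Over all genes, edgeR called 0, while 1 was called higher with no filter, and DESeq2 called 7 higher and 22 lower. The number with an unadjusted p under 0.05, 913, was 1800 without CTRL 4 and 1466 with the replicate number as a block. Same-numbered libraries did not all deviate together (correlations of 0.34, −0.27, 0.43 and 0.090 for numbers 1 to 4), so the numbers were not taken as pairs; with the replicate block Cbr2 was at 0.77 with an adjusted p of 0.459, and the block changed no call at an adjusted p under 0.05. At an unadjusted p under 0.05 it had 3 of the 9 genes, with Akr7a5 at 0.0327. With 4 mice a group the SE of the 9 log2 fold changes was between 0.11 and 0.23, which limits what could be told apart for Cbr3, Akr1b3 and Akr7a5.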

Other observations

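Of the 9 genes, Cbr2, Cbr3 and Akr7a5 varied more over the 8 libraries than the median tested gene (SD of log2 CPM 0.48, 0.36 and 0.33 against 0.26). For these, the genes with the most similar profile were found by the root mean square difference of centred log2 CPM over the 8 libraries. The nearest to Akr7a5 were Cacfd1 (0.058), Pard3 (0.089) and Urgcp (0.090). The nearest to Cbr2 were Gm43010 (0.16), Wnt5a, a Wnt ligand (0.17), and C1qtnf5, a secreted relative of adiponectin (0.17). Wnt5a measured 5.01 ± 0.873 CPM in DoxoR and 3.47 ± 0.657 CPM in CTRL bones, and C1qtnf5 4.00 ± 0.590 CPM in DoxoR and 2.69 ± 0.422 CPM in CTRL bones (SD, n = 4 each). The nearest to Cbr3 were Gm37902 (0.13), Scarna2 (0.13) and Cacnb2 (0.13), all at about 1 CPM or less. The profiles were scaled for library depth but hold the group difference, and nothing is drawn from them on shared function.

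Akr1a1 over Akr1b3, per kilobase of exon, was between 7.39 and 10.4 in DoxoR and between 8.43 and 12.6 in CTRL libraries, with CTRL 3 the highest.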
